A study of Rattus norvegicus with 42 samples.

Results

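Cap analysis of gene expression (CAGE) reads the first bases of capped RNA, so each tag marks the 5′ end of one transcript. A promoter usually gives 1 or a few peaks of such tags. In some places, however, peaks follow one another along the same strand for many kilobases, and these dense runs are described here for rat skeletal muscle. Peaks on the same strand were chained where neighbours lay at most 5000 nt apart, and the 23 chains of at least 10 peaks outside the mitochondrial chromosome were taken as arrays. A stretch of the plus strand of chromosome 10 with 2 more such chains was left out. The arrays held 572 of 9969 peaks (5.74%), and the whole table gave 8094 chains.

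Capped 5′ ends are best known from promoters, but CAGE also finds tags inside exons and along the body of very abundant transcripts, away from any known promoter. Long runs of tags also arise where copies of one sequence are repeated, because a short read then matches several places. In striated muscle the most abundant messengers code for the proteins of the sarcomere. The peak table names no genes and its genome build had no annotation here, so the arrays are named by chromosome and a letter, in order of position, and the genes under them, the gene groups and the cell type markers of the muscles were not analysed here.

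The series held 42 nAnT-iCAGE libraries from 21 mature Wistar rats, with the slow soleus and the fast extensor digitorum longus (EDL) taken from each rat. Control rats (C) were active, 3 groups were unloaded by tail suspension for 24 hours (D1), 3 days (D3) or 7 days (D7), and 3 groups were unloaded for 7 days and then moved freely for 24 hours (R1), 3 days (R3) or 7 days (R7). Each group had 3 rats, named below by their animal number with the letter U. Both control groups were sequenced in lane 1 and both R1 groups in lane 4 of 6 lanes, so lane and phase can be separated only through the phases that were spread over several lanes. In whole muscle, fewer cells of a type and less RNA per cell cannot be told apart.

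The libraries held between 1778712 and 23103236 tags, with a median of 9354058.5. The arrays took 123013837 of 430724879 tags (28.6%), and between 22.1% and 38.4% of a single library. Levels are given as CPM, the tags of an array scaled to the mapped tags of its library. Fold changes are on a log2 scale from the edgeR fit with TMM scaling, which sets the typical chain to no change. A chain was called at an adjusted p below 0.05 and a change of more than 2.38-fold in either direction.

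The arrays lay on 10 chromosomes, with 11 on the plus and 12 on the minus strand, and spanned from 8119 to 113750 nt with a median of 19332 nt. The minus strand of chromosome 3 alone carried 6 arrays with 324 peaks, which is 56.6% of all array peaks. The one with the most peaks was 3C at chr3:63565208-63678957 (Rnor_6.0, minus strand), with 138 peaks over 113750 nt and 54.8% of its span inside peaks. Its neighbours 3D, 3E and 3F held 24, 57 and 31 peaks and followed within 21628, 5175 and 19933 nt. Arrays 3A and 3B, with 50 and 24 peaks, lay elsewhere on that strand, 26710 nt from each other. The other arrays with many peaks were 15C (36 peaks), 10B (22) and 1C (20). At the edge of the definition stood 5 chains of 9 peaks, with 305981 to 15186678 tags, and 4 arrays of 10 peaks, with 11056 to 9589023 tags.

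The first peak of an array, the one nearest its 5′ end, seldom held most of the tags. It was the largest peak in 5 of 23 arrays (21.7%), against 36 of 65 chains of 5 to 9 peaks (55.4%) and 405 of 670 chains of 2 to 4 peaks (60.4%). Its median share of the tags was 3.96% in the arrays, 34.5% in chains of 5 to 9 peaks and 60.2% in chains of 2 to 4. A smaller share is partly set by the number of peaks, which the definition used, so these shares describe the arrays and were not tested.

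The arrays fell into different shapes along their length. In 4 of them the first peak was dominant, with 91.8% of the tags of 1B, 89.0% of 1C, 88.3% of 4A and 86.5% of 10B, and a tail of small peaks behind it. In 15 arrays the first peak held under 6%. The effective number of peaks (the inverse of the summed squared shares) was 41.4 of 57 in 3E, 33.6 of 50 in 3A and 17.3 of 24 in 3B, against 1.18 of 10 in 1B. In 3C it was 21.1 of 138, and its largest peak held 12.9% of the tags. With the span cut into 3 equal parts and both muscles pooled, the fullest part was the first in 8 arrays, the middle in 9 and the last in 6. The parts of 8A were nearly equal (33.3%, 33.3% and 33.4%). In 15A the first part held 69.3% in soleus, whereas the middle part held 76.4% in EDL. In 12A and 10A the last peak was the largest, with 30.3% and 25.8% of the tags. The map of tags along the arrays shows these shapes side by side.

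**Figure D1:**
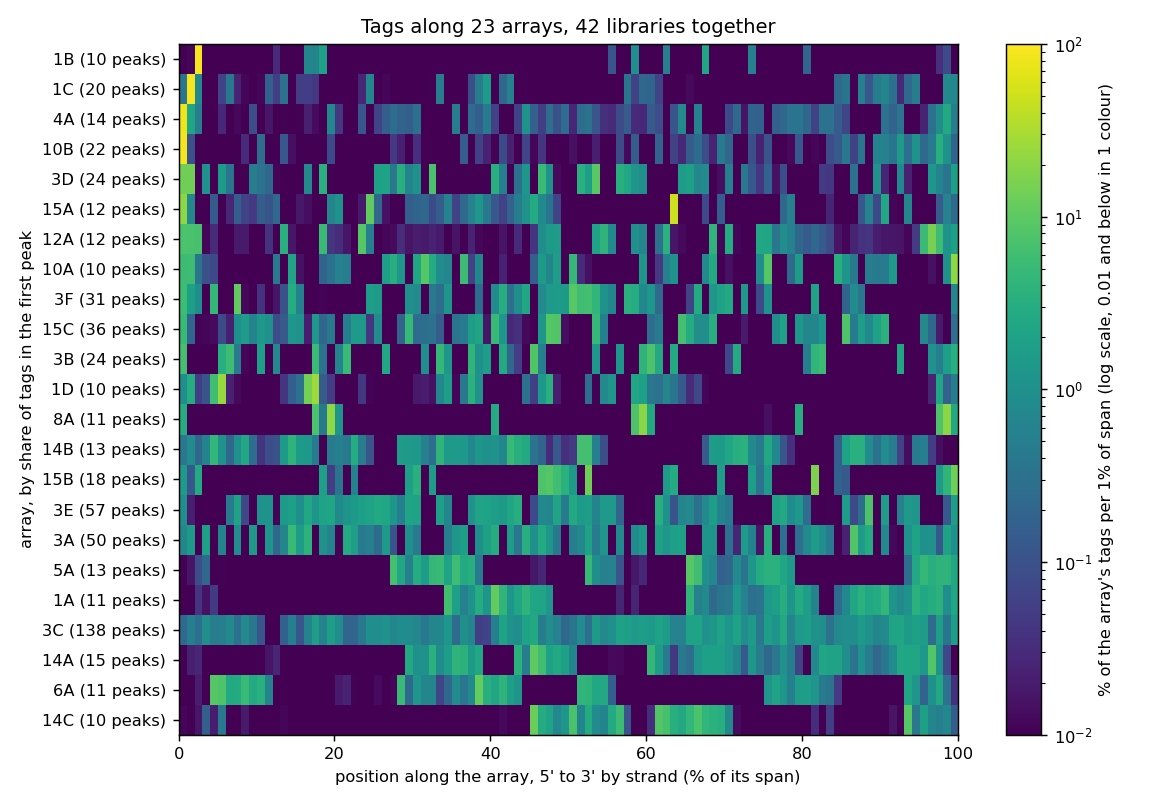
Each row is one of 23 arrays, ordered by the share of tags in its first peak, and the x axis is the position from its 5′ to its 3′ end in percent of the span; the colour gives the share of the array's tags in each bin on a log scale, over 42 libraries. The 4 arrays at the top, 1B, 1C, 4A and 10B, hold over 86% of their tags in the first peak, while the tags of 3A, 3C and 3E run along the whole span.

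Neighbouring arrays on chromosome 3 varied together from library to library. The ratio of 3A to 3B ranged from 1.44 to 1.59 over the 21 soleus libraries and from 1.36 to 1.51 over the 21 EDL libraries, a coefficient of variation of 2.68% and 3.03%. The ratio of 3C to 3D was looser, from 8.71 to 13.2 in soleus and from 8.67 to 18.3 in EDL. Arrays 3A and 3B thus kept nearly 1 ratio in all 42 libraries across both muscles, whereas the level of each moved more than 3-fold, from 271 to 996 CPM for 3A in soleus.

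A group of 5 plus-strand arrays on 4 chromosomes, 1A, 5A, 6A, 14A and 14C, dominated the tag counts of the arrays. They held 112095148 tags, which is 26% of all tags and 91.1% of the array tags, and between 19.4% and 36.5% of a single library. The weight of reads that match several places is not known. These sums, and the share of tags in all arrays, may thus hold a read more than once. Array 14A at chr14:46633746-46655739 (Rnor_6.0, plus strand) alone took 10.8% of all tags and had 2521 tags per base of its peaks, the most of any array. Leaving aside these 5 and 14B, the other 17 arrays together held 7924012 tags (1.84%), from 11056 in 10A to 2087574 in 3C.

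These 5 arrays shared the fine pattern of their tags. Windows of 150 nt were compared base by base, and a window was matched where its tag profile correlated with that of another window at 0.98 or more. Only windows of the 23 arrays were compared, not those of chains with fewer peaks. Of the windows of 6A, 71.1% had a match in 14A, as had 66.4% of those of 5A and 65.0% of those of 1A, and 61.4% of those of 14C had one in 5A. Matched windows carried nearly equal numbers of tags, with median ratios of 0.999 to 1.00. Outside this group only 15B and 15C shared windows between arrays, 5 of 19 and 4 of 65. Per the paper, reads could map to up to 20 places, and mapped alignments were aggregated into start sites. The weight given to each place is not stated in the sources used here. Tag profiles were compared, not sequences, so whether the same reads were placed in several of these arrays was not tested. Tags in matched windows are therefore not assigned to 1 of these arrays here. Array 14A ranged from 80282 to 154046 CPM in soleus and from 84894 to 135119 CPM in EDL, and its ratio to 14C from 4.27 to 5.50 in soleus. None of the 5 was called between the muscles in controls (-0.68 to -0.58) or at R1 in soleus (-0.59 to -0.44), where 14A had 110826, 82735 and 91288 CPM in controls and 88223, 91616 and 109050 CPM at R1. Array 14B matched no other array but itself, with 77 of 206 windows (37.4%) like another of its own. Matches within the array also occurred in 14A (45.5%), 6A (22.8%), 14C (20%), 1A (18.8%) and 5A (2.59%). Array 8A on chromosome 8 had no window with enough tagged positions to compare, but sets of its peaks held nearly equal shares, with peaks 3, 7 and 10 holding 20.5%, 20.7% and 20.7% of its tags and peaks 2, 6 and 9 holding 7.74%, 7.83% and 7.81%.

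The minus-strand arrays 14B and 8A stood apart in their strand balance. Array 14B at chr14:46639982-46655667 lies opposite 14A, and 93.9% of all tags in its span were on the other strand, as were 85.8% in the span of 8A. In the remaining arrays this share was between 0.293% and 9.20%. Both were lowest in the same 8 libraries, which were soleus D1 U25, D3 U9, D3 U10, R1 U20, R1 U21 and R3 U5 and EDL D3 U9 and D3 U10. In those 8, 14B stood at most at 3094 CPM and 8A at 30.6 CPM, whereas the other 34 libraries had at least 5280 and 54.8 CPM. The tags opposite 14A made up 1.12% to 2.45% of its span in these 8 libraries and 4.97% to 15.2% in the others. In 8 arrays, 14A among them, this share was lower in each of these 8 libraries than in every other library. All 8 had at least 12558292 tags, a depth above 12000000 that 8 of the other 34 libraries also had. At R1 in soleus 14B had 5706, 1644 and 1891 CPM against 9553, 7342 and 8589 CPM in controls, with a change of -1.95 that was not called (adjusted p = 0.0721). The 8 libraries include 2 of the 3 soleus libraries of R1, and their part in the results below was not tested beyond leaving them out.

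The first comparison asks which arrays distinguish the slow from the fast muscle in control rats. Arrays 1B, 15B, 15C and 12A were much higher in soleus, by 36.4-fold to 82.0-fold on mean CPM, and 1C was 10.4-fold higher in EDL. Arrays 1D and 15A were also higher in EDL, by less. In all, 7 of 23 arrays were called, 4 higher and 3 lower in soleus, against 9.89% of all chains tested (799 of 8082), of which 5.18% were higher and 4.7% lower. The median log2 difference was -0.58 over the arrays and 0.01 over all chains.

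Array 15C at chr15:33634468-33657899 (Rnor_6.0, minus strand) stood at 2360, 2222 and 1760 CPM in the soleus of the 3 control rats and at 7.54, 39.4 and 36.0 CPM in their EDL. Its neighbour 15B, 6621 nt away, stood at 906, 903 and 606 CPM in soleus and at 2.46, 13.4 and 13.6 CPM in EDL. The groups were far apart in both, with a log2 difference of 5.66 ± 0.72 (SE, adjusted p = 5.41e-07) for 15C and 5.82 ± 0.80 (adjusted p = 1.81e-06) for 15B. All 36 peaks of 15C and all 18 of 15B were called higher in soleus, against 12.9% of all peaks (1279 of 9947) called in either direction.

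Array 1B at chr1:72889011-72899711 (plus strand) was the most abundant of the arrays that separate the muscles, with 7888, 5412 and 13927 CPM in soleus and 34.5, 154 and 202 CPM in EDL. Its log2 difference was 5.43 ± 0.70 (adjusted p = 6.65e-07), and all 10 of its peaks were called. Array 12A at chr12:39587205-39603279 (plus strand) stood at 287, 264 and 225 CPM in soleus and at 2.13, 8.47 and 10.7 CPM in EDL, a log2 difference of 4.66 ± 0.76 (adjusted p = 2.72e-05). In the EDL, 1B, 12A, 15B and 15C were all lowest in the same control library (U6) and all highest in the same D7 library (U1), with 1355 CPM for 1B and 194 CPM for 15C in the latter. What set these 2 libraries apart was not tested.

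Array 1C at chr1:197855948-197875279 (minus strand) ran the other way, with 650, 381 and 362 CPM in soleus and 7334, 3072 and 4108 CPM in EDL. The log2 difference was -3.78 ± 0.50 (adjusted p = 1.12e-06), and all 20 of its peaks were called lower in soleus. Array 1D had 348, 230 and 406 CPM in soleus and 830, 471 and 707 CPM in EDL, and 15A had 231, 166 and 319 CPM against 712, 330 and 515 CPM. Their log2 differences were -1.52 ± 0.24 (adjusted p = 2.19e-05) and -1.60 ± 0.25 (adjusted p = 1.86e-05), and the muscles did not overlap in either.

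The same 7 arrays were called with the rat as a block. Scaling by library totals raised the median of all chains to 0.47 and shifted their calls from 419 higher and 380 lower to 637 higher and 237 lower. Arrays 1D and 15A were then not called and 4A was, which left 6.

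**Figure D2:**
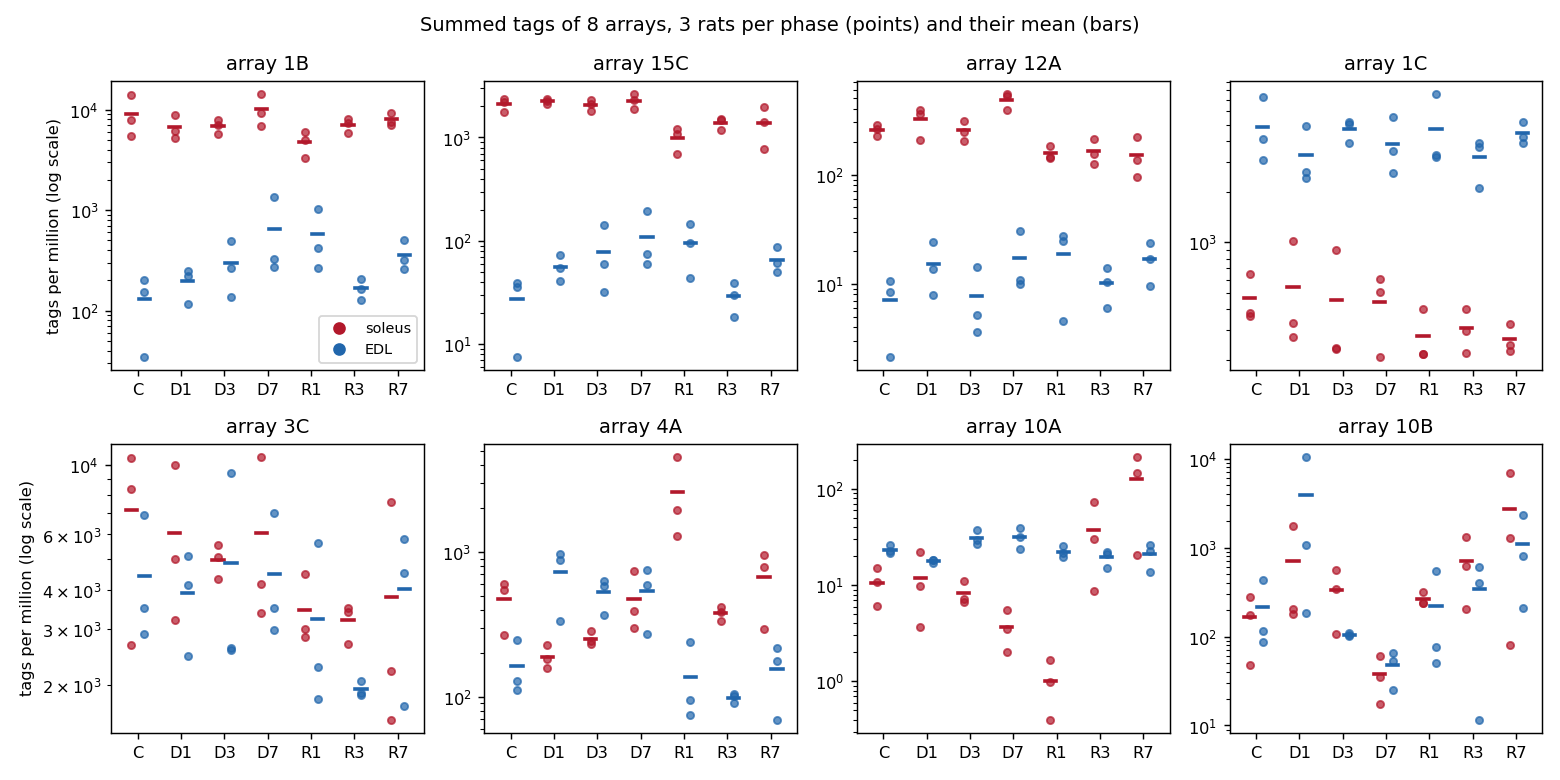
CPM (log scale) of 8 arrays in each phase, with 1 point per library, soleus in red and EDL in blue, and bars at the mean of 3 rats. The muscles stay apart in every phase for 1B, 15C, 12A and 1C, while 4A and 10A cross over and 10B ranges from 11.6 to 10472.

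The large gap between the muscles persisted through unloading and recovery in 1B, 12A, 15C and 1C, which is visible in the plot of 8 arrays by phase. At D7, 7 arrays were called between the muscles, against 7.02% of all chains, where 276 were higher and 291 lower (287 and 197 by library totals). At R1 11 arrays were called, 5 higher and 6 lower in soleus, against 28.8% (18% higher, 10.8% lower), with 1452 higher and 874 lower (2139 and 448 by library totals). Of these 11, 1D and 15A were lost by library totals, which left 9. Arrays 14B and 8A were lost without the 8 libraries low in them. Those libraries were chosen for these low values, so that loss tests neither array. The log2 difference of 15C was 4.11 at D7 and 2.73 at R1, and that of 1B 3.68 and 2.42.

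In controls 8 arrays had every tested peak higher in soleus and 8 every tested peak lower. Of the lower ones only 1C was called as a sum. They include 1A, 5A, 6A, 14A and 14C, whose mean CPM in soleus was 0.883 to 0.930 of that in EDL. The share of such chains among all chains was not computed. The other 7 had peaks on both sides, though in 3B, 3C, 3D and 10B no peak was called and at most 2 lay opposite the rest, which leaves 1D, 10A and 15A. Array 1D at chr1:198225561-198233679 (minus strand) was lower in soleus as a sum, yet its largest peak, peak 3, stood at 223 ± 83.6 CPM (SD, n = 3) in soleus and 156 ± 61.4 CPM in EDL and was not called. Peak 2 stood at 41.3 ± 5.79 CPM in soleus and 303 ± 92.9 CPM in EDL, a log2 difference of -3.22. Together with peaks 4 to 9 this made 7 of 10 peaks called lower in soleus, whereas 608 of all 9947 peaks were called lower and 671 higher (12.9% together). The first peak, in contrast, stood at 19 ± 5.54 CPM in soleus and 6.43 ± 2.42 CPM in EDL, and was not called by counts.

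Array 15A at chr15:4064449-4084255 (plus strand) held peaks of both muscles. Peak 3 at chr15:4069082-4069615 stood at 60.2 ± 36.7 CPM (SD, n = 3) in soleus and 0.891 ± 0.299 CPM in EDL, a log2 difference of 5.59. Peak 9 at chr15:4076879-4077181 stood at 26.9 ± 2.58 CPM in soleus and 416 ± 153 CPM in EDL, a log2 difference of -4.29. Of its 12 peaks, 5 were called higher and 4 lower in soleus, against 12.9% of all peaks in either direction. The 4 lower ones were the last of the array, peaks 9 to 12. Peak 9 held 75% of the array's tags over the EDL libraries and 11.7% over the soleus libraries.

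Array 10A at chr10:53632914-53643843 (plus strand), the array with the fewest tags, also had peaks on both sides. In controls its peaks 1, 3 and 10 were higher in EDL, at 6.44, 9.80 and 7.01 CPM against 1.96, 1.40 and 0.970 CPM, and peaks 3 and 10 were called. The other 7 peaks were higher in soleus, with at most 1.29 CPM there (peak 8) and 0.0789 CPM in EDL (peak 2). Peaks 6, 7 and 9 had no tag in any EDL control library.

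**Figure D3:**
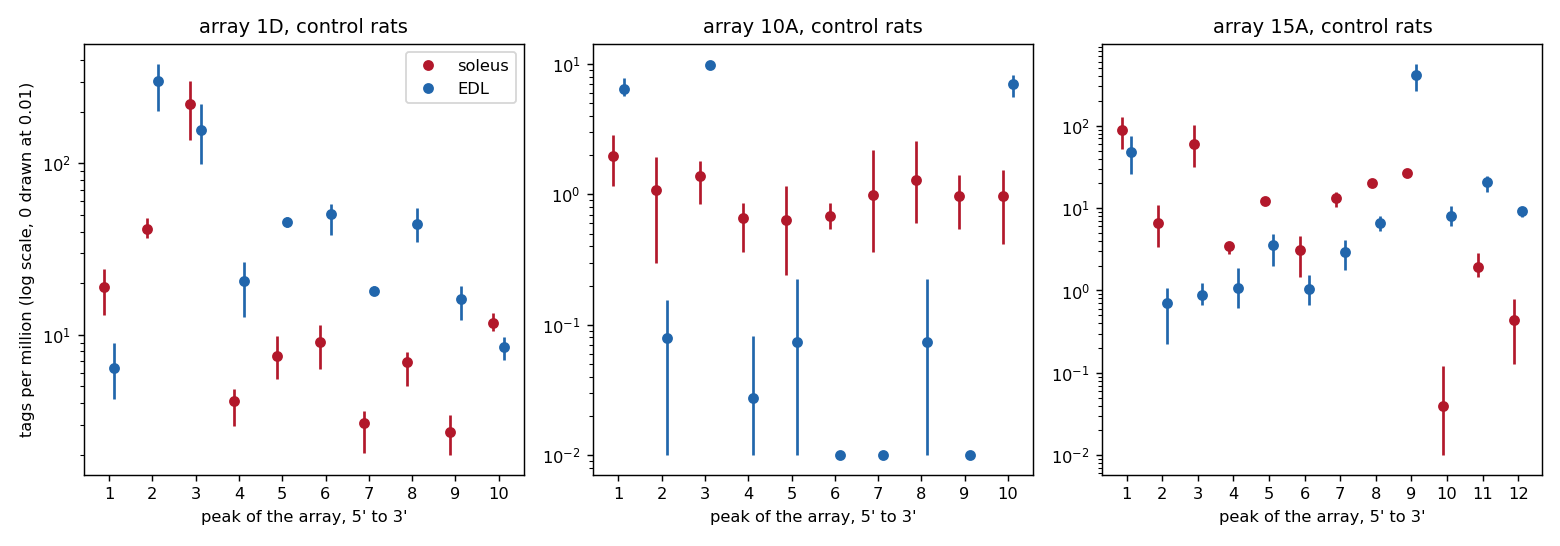
CPM (log scale, with 0 drawn at 0.01) of each peak of arrays 1D, 10A and 15A in control rats, in order from 5′ to 3′; points are means of 3 rats and lines run from the lowest to the highest. In 15A the early peaks sit higher in soleus (red) and peaks 9 to 12 higher in EDL (blue), and in 1D peak 3 is near 200 in both muscles.

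Peak 3 of 15A changed in opposite directions in the muscles during unloading. It was singled out after its values were seen. In soleus it stood at 47.3, 31.7 and 102 CPM in controls, at 2.94, 3.81 and 5.57 CPM at D1, at 15.9, 1.20 and 4.24 CPM at D3 and at 2.58, 4.13 and 1.03 CPM at D7. All unloaded rats were below all controls. At R1 it was back at 41.6, 66.3 and 52.3 CPM, and at R7 it stood at 259, 401 and 74.6 CPM.

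In the EDL of the same rats, peak 3 stood at 1.23, 0.668 and 0.774 CPM in controls, at 20.2, 7.62 and 21.5 CPM at D3 and at 17.6, 4.35 and 5.57 CPM at D7. The EDL control libraries held 12195006, 4488404 and 6463470 tags, so these control levels rest on few tags. All EDL libraries of D3 and D7 were above all controls, and at D1 the groups overlapped. It fell in soleus by 3.70 on the log2 scale at D1 (SE 0.69, adjusted p = 0.00781), by 3.20 at D3 (SE 0.67, adjusted p = 0.0292) and by 4.62 at D7 (SE 0.74, adjusted p = 0.0165). In EDL it rose by 3.80 at D3 (SE 0.63, adjusted p = 0.00778) and by 3.01 at D7 (SE 0.63, adjusted p = 0.0228). The calls over all peaks amounted to 1.97% (D1), 0.732% (D3) and 0.122% (D7) in soleus and to 1.26% (D3) and 1.09% (D7) in EDL.

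The difference between the muscles was tested in one fit over 42 libraries. The change in soleus minus that in EDL was -5.01 ± 1.00 (SE, adjusted p = 0.00398) at D1, -7.02 ± 0.96 (adjusted p = 7.52e-05) at D3 and -7.65 ± 1.00 (adjusted p = 8.3e-05) at D7, where 70 of 9947 peaks (0.704%) were called and peak 3 of 15A had the lowest p. At D3 and D7 the call held without any 1 of the 12 libraries, with the rat as a block, and with the lane as a term. At D1 it was lost without EDL D1 U26 (-3.69, adjusted p = 0.351). Within one muscle, with the lane as a term, no change was called, at -4.25, -3.90 and -5.26 in soleus at D1, D3 and D7 and 3.46 and 2.73 in EDL at D3 and D7. The standard errors were then 1.05 to 1.34. By library totals the soleus calls at D3 (-3.05) and D7 (-4.47) were lost (adjusted p = 0.0834 and 0.0563). Without the 8 libraries low in 14B and 8A, which include 2 of the 3 soleus libraries of D3, the soleus call at D3 was lost (-3.63, adjusted p = 0.321). In soleus the D1 call was lost without D1 U25 (adjusted p = 0.0506). The D3 call was lost without control U6 or U8 or D3 U10 or U11 (-3.33 to -2.67), and the D7 call without control U8 or any D7 library (-4.92 to -4.19). In EDL the D3 call was lost without control U7 (adjusted p = 0.0533), and the D7 call without any 1 control or without D7 U1 (2.19 to 3.12). Peak 2 of 15A, the next peak towards the 5′ end, was called with it in soleus at D1 (-2.35) and in EDL at D3 (2.57). Peak 9 was called at no phase in either muscle.

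**Figure D4:**
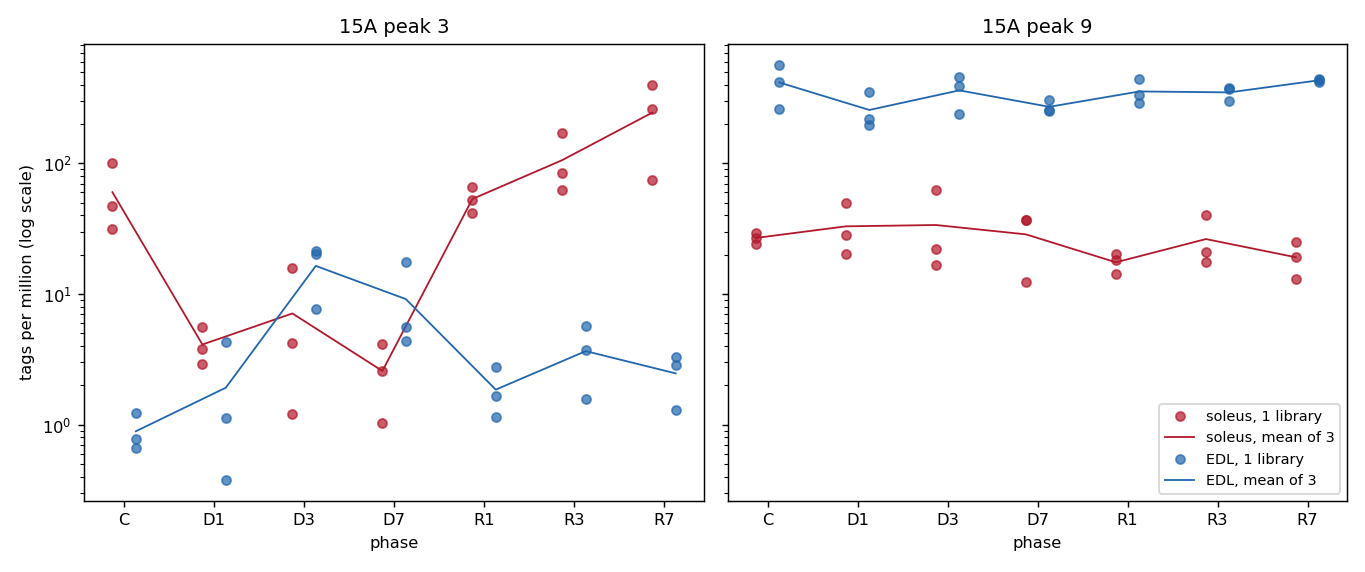
CPM (log scale) of peaks 3 and 9 of array 15A by phase, with 1 point per library and lines through the means of 3 rats, soleus in red and EDL in blue. Peak 3 in soleus drops from 60.2 in controls to 2.58 at D7 while in EDL it goes from 0.891 to 9.16, and peak 9 is at 196 or more in every EDL library.

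The next comparison follows the array totals through unloading and recovery. In soleus no array was called at D1, D3, D7 or R3 by edgeR, against 2.45%, 0.733%, 0.124% and 2.02% of all chains, and DESeq2 called none of them either. At an unadjusted p below 0.05 there were 2, 1, 2 and 9 of 23 arrays, against 17.9%, 15.9%, 12.3% and 22.5% of all chains. At R1, 10 of 23 arrays were called, 1 higher and 9 lower, against 20% of all chains (1607 of 8050), of which 12.6% were higher and 7.32% lower. Arrays below control numbered 21 of 23, and their median log2 fold change was -1.27, against 0.02 over all chains. The 23 arrays are not independent of one another. Among those called at R1, 3C to 3F are neighbours, and so are 15B and 15C. Arrays 1A, 5A, 6A, 14A and 14C share matched windows, and 15B and 15C share a few. Counts of arrays and of their peaks thus do not count separate loci, and their excess over the shares of all chains was not tested.

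The called arrays at R1 were led by 10A, 15B, 15C and 3F among those that fell, and by 4A, the only one that rose. Array 10A stood at 6.07, 10.7 and 15.1 CPM in controls, at 5.48, 2.02 and 3.49 CPM at D7 and at 0.991, 0.398 and 1.65 CPM at R1. The soleus libraries of R1 held 14123232, 12558292 and 18200465 tags, so these R1 levels rest on few tags. All R1 rats were below all controls, and the array fell by 3.82 on the log2 scale (SE 0.91, adjusted p = 0.00306). At R7 it stood at 145, 216 and 20.6 CPM, above all controls, and rose by 3.41 (SE 0.82, adjusted p = 0.0200), the only array called at R7, where 5.01% of all chains were called, 3.29% higher and 1.71% lower. Of its 10 peaks 7 were called (up to 4.28), against 4.19% of all peaks. The call of the array at R7 was lost with the lane as a term, and also without control U6 or U8 or R7 U12 or U13 (no array called). Without R7 U19 4 arrays were called. In the EDL, 10A stayed between 13.8 and 39.5 CPM in every library.

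Array 15C fell from 2360, 2222 and 1760 CPM in control soleus to 691, 1218 and 1090 CPM at R1, and 15B from 906, 903 and 606 CPM to 249, 384 and 389 CPM. Neither overlapped with the controls. The log2 fold changes were -1.67 ± 0.39 (SE, adjusted p = 0.00300) and -1.84 ± 0.43 (adjusted p = 0.00276), and 29 of 36 and 15 of 18 peaks were called lower, against 8.59% of all peaks. Array 1B had 3325, 5968 and 5000 CPM at R1 and overlapped with its controls on this scale, with a fitted change of -1.41 ± 0.34 (adjusted p = 0.00312). Array 12A had 184, 144 and 142 CPM at R1 after 544, 390 and 520 CPM at D7, a change of -1.28 ± 0.45 from control (adjusted p = 0.0303). At R3, 15C stood at 1193, 1505 and 1487 CPM and at R7 at 769, 1423 and 1968 CPM, with log2 fold changes of -0.89 and -0.53 that were not called.

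Array 4A at chr4:56710804-56738725 (plus strand) rose in soleus from 603, 265 and 547 CPM to 4544, 1941 and 1286 CPM, with every R1 rat above every control. The log2 fold change was 2.0 ± 0.51 (adjusted p = 0.00498), and all 14 of its peaks were called higher, by 1.78 to 2.65, against 14.7% of all peaks. At R3 it was back at 332, 382 and 418 CPM. In the EDL, 4A was instead high in unloading, with 332, 964 and 887 CPM at D1 against 247, 111 and 128 CPM in controls, a rise of 2.30 ± 0.44 (adjusted p = 0.00636) that all 3 D1 rats shared. It was the only array called at D1 in EDL, against 3.32% of all chains (1.88% higher, 1.44% lower), and 13 of its 14 peaks were called, against 3.08% of all peaks. The split of all chains was 145 higher and 111 lower, and by library totals 76 and 21 of 7747. The first peak of 4A was not called by library totals (1.92, adjusted p = 0.106). With the lane as a term the array itself was not called at D1 in EDL.

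The chromosome 3 arrays fell together at R1 but less firmly. Array 3C had 10512, 2673 and 8377 CPM in controls and 4494, 2838 and 3012 CPM at R1, so the groups overlapped through control U7. The fitted changes of 3C, 3D, 3E and 3F lay between -1.54 and -1.42, with adjusted p from 0.0279 to 0.0458. All 250 of their peaks were below control and 64 were called, against 8.59% of all peaks called lower and 23.3% called in either direction. These arrays are neighbours that varied together, so their peaks are not independent results. Array 3A went from 882, 784 and 699 CPM to 472, 570 and 494 CPM without overlap, a change of -1.19 (adjusted p = 0.0187) under the fold cutoff, and 3B behaved alike with -1.14 (adjusted p = 0.0224).

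**Figure D5:**
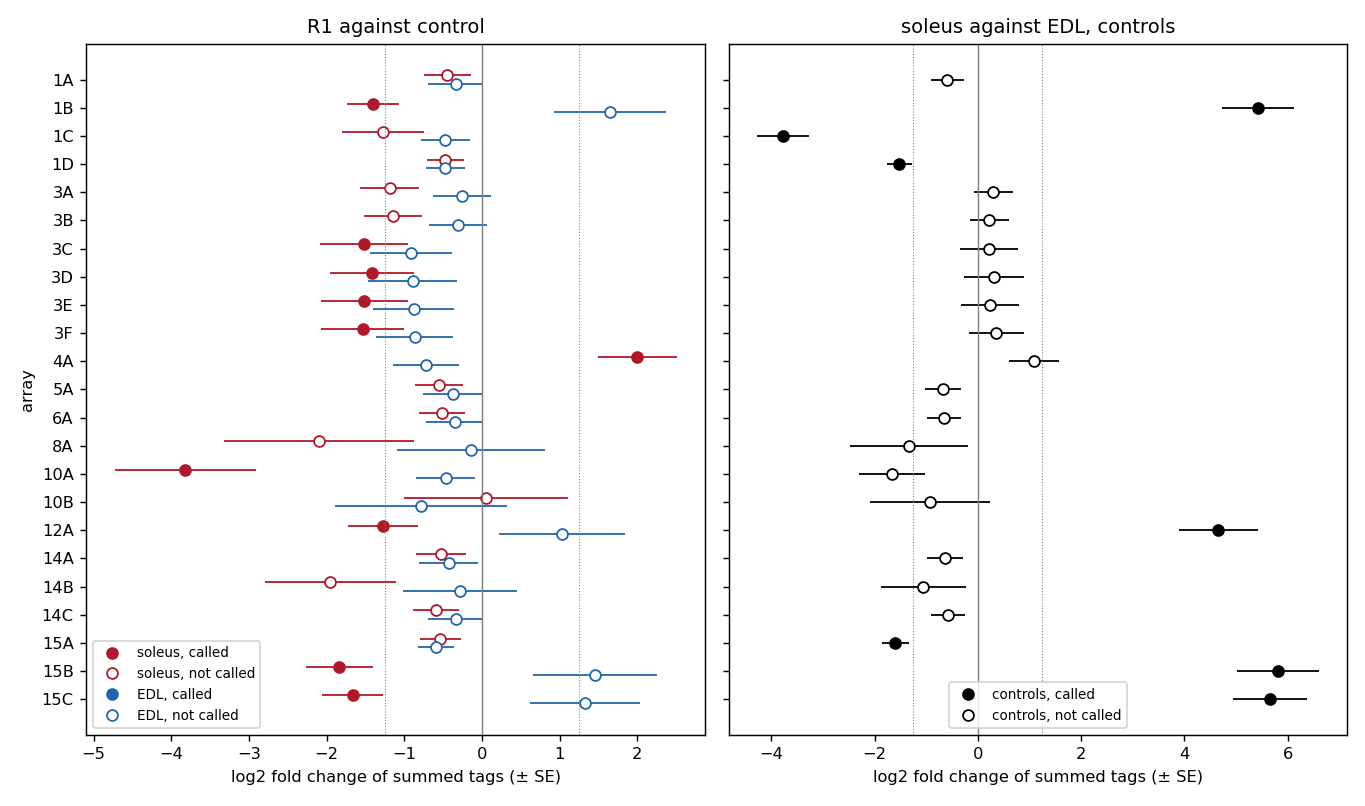
Log2 fold changes of the summed tags of 23 arrays with their standard errors, at R1 against control (left, soleus red and EDL blue) and in soleus against EDL in controls (right); filled points were called and dotted lines mark the fold cutoff. In soleus 9 arrays are called lower and 4A higher at R1, in EDL none is called, and on the right 1B, 12A, 15B and 15C stand above 4.

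Over all array peaks, 163 of 568 tested were called at R1 in soleus, 17 higher and 146 lower, against 23.3% of all peaks, with 8.59% lower. The split of all peaks was 1450 higher and 845 lower, and 2092 and 374 by library totals. In 14 arrays every tested peak was below control. This count rests on TMM scaling, and its counterpart among all chains was not computed.

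Several settings bear on these falls. Scaling by library totals raised the median of all chains at R1 to 0.54 and their split from 1018 higher and 589 lower to 1814 and 188. The arrays still stood 1.26 below that median and 21 of 23 were under it, but only 10A and 4A were called, and 14A, 1A, 1D and 6A were slightly above control. With the lane as a term, estimated through the other phases, no array was called and only 9 of 8082 chains were. In that fit 10A stood at -6.19, 4A at 2.89, 3C to 3F between -2.46 and -2.05, 15B at -1.29, 15C at -0.96, 1B at -0.29 and 12A at -0.06. The standard errors of these values were 1.38 to 1.72, so that fit could call few changes. The values of 15B, 15C, 1B and 12A lay within them and give no direction. Without control U6, R1 U20 or R1 U21, 5 arrays were called, with 3C to 3F and 12A lost. Without control U7 9 were called (12A lost), without control U8 8 (1B, 3C, 3D and 3E lost, 3A and 3B gained) and without R1 U18 12 (1B lost, 1C, 8A and 14B gained). Without the 8 libraries low in 14B and 8A, which left 1 soleus library of R1, 2 were called, 4A (2.98) and 1B (-1.71). Arrays 10A, 15B and 15C then had -3.71, -2.07 and -1.98 and were not called, with 3C to 3F between -0.98 and -0.82 and 12A at -0.85.

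In the EDL no array was called at D3, D7, R1, R3 or R7, against 1.48%, 1.1%, 0.0%, 0.0% and 0.013% of all chains. At an unadjusted p below 0.05 there were 3, 4, 2, 3 and 0 of 23 arrays, against 17.6%, 12.1%, 9.21%, 13.5% and 4.9% of all chains, and DESeq2 called 1 at D3 (4A) and none at the other phases. Without EDL D3 U11, which left the 2 D3 libraries low in 14B and 8A, both of these arrays were called at D3. At R1 the EDL values of 15B, 15C and 1B were all above control, while in soleus those of 15B and 15C were all below it and those of 1B overlapped with it. Array 15C had 44.2, 95.6 and 147 CPM, and 1B 265, 424 and 1031 CPM, with log2 fold changes of 1.33 and 1.65 that were not called.

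The R1 change differed between the muscles in 5 arrays, against 9.44% of all chains (763 of 8082), of which 6.47% were positive and 2.97% negative. By library totals the same 5 were called, against 383 of 8084 chains (4.74%, with 262 positive and 121 negative). Soleus fell relative to EDL by 3.30 for 10A (SE 0.97, adjusted p = 0.0223), by 3.23 for 15B (SE 0.95, adjusted p = 0.0231), by 3.01 for 1B (SE 0.83, adjusted p = 0.0159) and by 2.94 for 15C (SE 0.85, adjusted p = 0.0209), and 4A went the other way with 2.79 ± 0.69 (adjusted p = 0.00734). The same 5 were called with the rat as a block. They were also called with the lane as a term, at -3.29 for 10A, -3.24 for 15B, -3.01 for 1B, -2.94 for 15C and 2.79 for 4A. Both muscles were in lane 1 in controls and in lane 4 at R1. A lane effect common to both muscles thus cancels in this difference, and that fit does not test it. Without soleus R1 U18, EDL control U6 or EDL R1 U21 2 were called, without soleus R1 U20 or EDL R1 U20 4 (10A lost), and without EDL R1 U18 6. Arrays 15B and 15C were lost without any of the first 3 of these. Without the 8 libraries low in 14B and 8A, 4A alone was called (3.67), and 15B, 1B, 15C and 10A had -3.57, -3.40, -3.35 and -3.26 (adjusted p = 0.0606 to 0.0842).

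Between R1 and D7 in soleus, 6 arrays were called, 1 higher (4A, 2.16) and 5 lower (14B, 12A, 15B, 15C and 1B, -2.22 to -1.45), against 20.7% of all chains (13.7% higher, 7.07% lower), whose split was 1099 higher and 569 lower and 1556 and 260 by library totals. By library totals 15C and 1B were under the fold cutoff and 10B was gained, which made 5. With the lane as a term none of the 6 was called. The 5 lower arrays then stood between 0.20 and 0.48, with standard errors of 1.27 to 1.51, too wide to give a direction. Without the 8 libraries low in 14B and 8A, 4A and 1B were called. In EDL none was called, against 0.0519%, with 1 at an unadjusted p below 0.05 and 1 by DESeq2 (4A).

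Array 10B varied widely within groups. It ranged from 11.6 to 10472 CPM over the EDL libraries and from 17.5 to 6828 CPM over the soleus libraries, with 1080, 186 and 10472 CPM in EDL at D1 and 6828, 1274 and 79.6 CPM in soleus at R7. The rats of these groups lay far apart, and 10B was called in no comparison by edgeR with TMM scaling and all libraries. By library totals and by DESeq2 it was called in soleus at R7 against control and at R1 against D7, by DESeq2 also in EDL at D1, and by edgeR without soleus R7 U19 at R7.

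The last comparison concerns the first peak. At R1 in soleus the first peaks of 7 of 23 arrays were called, 3 higher (4A, 14A and 1A) and 4 lower (10A, 15B, 3F and 1B), against 23.3% of all peaks. By library totals 5 were called, with 15B, 3F and 1B lost (-2.64, -1.01 and -0.94) and 6A gained. The call of 15B was lost without any 1 of the 6 libraries (-3.84 to -2.56), those of 14A and 1A without control U7 (1.07 and 1.05) and that of 14A also without R1 U21 (1.24). That of 1B was lost without control U8 or R1 U18 (-0.99 and -1.14), and that of 3F without control U6, R1 U20 or R1 U21 (-1.34 to -1.07). The first peaks of 14A and 1A were also called higher at R3 (1.81 and 1.79), where 1.66% of all peaks were called, and at R7 (1.51 and 1.55), where 4.19% were. At R7 that of 15B was called lower. In the difference between the muscles at R1, 4 first peaks were called (10A, 15C, 1B and 4A), against 10.2% of all peaks. In the EDL at R1 none of 22 was called, against 0.0%, with 2 at an unadjusted p below 0.05 and none by DESeq2.

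Relative to the rest of its array, tested as the log2 ratio of first peak to remaining tags with no fold cutoff, the first peak rose in 14A, 1A and 6A at R1 in soleus by limma, 3 of 23 arrays against 13.2% of all chains of 2 or more peaks (98 of 740). The share in 14A was 0.0293%, 0.0182% and 0.0437% in controls and 0.0909%, 0.0993% and 0.0927% at R1, or 540, 174 and 311 tags against 1133, 1142 and 1840 tags. All R1 rats were above all controls, with a log2 difference of 1.72 ± 0.45 (adjusted p = 0.0138). Arrays 1A and 6A, which share windows with 14A, gave 1.64 (adjusted p = 0.0186) and 1.43 (adjusted p = 0.0264). None of the 3 was called by edgeR's diffSpliceDGE (1.66, 1.56 and 1.5, adjusted p from 0.0974 to 0.154). The 3 calls fell to 0 without control U7, to 1 (14A) without control U6 or R1 U20 and to 2 without any other of these libraries. In the EDL at R1 none of 22 shares was called, against 0.0% of 657 chains, with 1 at an unadjusted p below 0.05.

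Between the muscles in controls, the first peak's share was larger in soleus in 1D and 15A, 2 of 23 arrays against 9.02% of all such chains. It was 5.72%, 5.71% and 5.93% in soleus and 1.09%, 0.898% and 0.853% in EDL for 1D, a log2 difference of 2.68 ± 0.25 (adjusted p = 3.84e-09). For 15A it was 39.4%, 31.5% and 39.6% against 10.7%, 7.84% and 8.48%, a difference of 2.56 ± 0.38 (adjusted p = 9.4e-06). By counts, 5 first peaks were called, higher in soleus in 15C, 1B, 15B and 12A and lower in 1C, against 12.9% of all peaks.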

How the data were processed

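CAGE libraries were prepared from soleus and EDL of 21 rats. Per the study's methods, the authors trimmed reads with Trimmomatic (version 0.38 in the processing notes), aligned them to Rnor_6.0 with STAR, kept reads with up to 20 loci, and clustered start sites into peaks. The processing notes also list BWA and HISAT2. In the paper, start sites were clustered for each muscle separately, and its permissive peak sets were far larger than the 9971 peaks used here. How the table used here relates to those sets was not examined. The deposited peak table holds raw tag counts per peak and library and, in separate columns, CPM normalized by the authors, which were not used. The start site files hold counts per position, and their sums over all positions gave library depth. The file headers call the counts rescued tag counts, and the weight per locus of reads with several loci is not given in the sources used here.

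Peaks were sorted by chromosome, strand and start and chained at gaps of at most 5000 nt. The arrays, lists and tests were chosen with earlier results of these data known. Counts were summed per chain, filtered with filterByExpr, scaled by TMM and tested with edgeR 4.0.16 (quasi-likelihood, Benjamini-Hochberg adjustment) in R 4.3.3. The 21 libraries of a muscle entered 1 fit for phases and all 42 for comparisons of muscles. Single peaks were tested likewise over all peaks. The ratio of the first peak to the rest (0.5 tags added to each) was tested with limma 3.58.1. DESeq2 1.42.0 was an alternative. Scripts were tested on simulated data. Printed CPM were computed here from counts and all tags of the library. The median biological coefficient of variation was 0.252 in soleus and 0.274 in EDL. Each group had 3 rats, and the p-values rest on the spread between libraries within groups of one experiment. Estimates of that spread were shared across groups and features, and the main comparisons of muscles did not pair the rats. Differences between the lanes of control and R1 are not part of that spread.

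Arrays were named in the text by a rule on number of peaks, called changes and first-peak share. Arrays 5A, 8A and 14B and peak 3 of 15A fall outside it and were chosen after their values were seen. The alternatives were other scalings, no filter, DESeq2, the sequencing lane as a term, the rat as a block, leaving out each library and other definitions. Animal numbers mark the rat that gave both muscles, and the deviations of its libraries from the group means correlated at -0.241 to 0.522 over 8082 chains, above 0.1 in 16 of 21 rats. Gene names, gene lists, tissue markers and sequences were not analysed here.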

Additional observations from a re-analysis of the deposited data

Results flagged for a closer look

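The change from control to R1 differed between soleus and EDL, by the test of the difference in edgeR, in 5 arrays. The soleus change minus the EDL change was -3.30 for 10A, -3.23 for 15B, -3.01 for 1B, -2.94 for 15C and 2.79 for 4A on the log2 scale. The unloading change of peak 3 of 15A also differed between the muscles, by -5.01 at D1, -7.02 at D3 and -7.65 at D7. This peak was chosen after its values were seen.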

How the results depend on the processing

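Between the muscles, the 7 arrays called at D7 stayed called under each alternative run, and so did the 7 in controls except by library totals, which lost 1D and 15A and gained 4A. In controls both muscles were in lane 1, so the lane term does not test that comparison. The counts at R1 in soleus moved further. With library totals in place of TMM, 2 arrays were called at R1 in soleus (10 before) and 2 at R7 (10A and 10B), and 14A, 1A, 1D and 6A turned to 0.020, 0.096, 0.050 and 0.023. With DESeq2, 2 were called at R7 in soleus, 2 at D1 in EDL, 1 at D3 in EDL and 1 between R1 and D7 in EDL. With the lane as a term, 0 arrays were called at R1, at R7 and between R1 and D7 in soleus and 0 at D1 in EDL. The lane term turned 10B at R1 to -1.70 (SE 3.33) and, between R1 and D7, 12A to 0.20, 14B to 0.32, 15B to 0.39, 15C to 0.48 and 1B to 0.32. The standard errors of the latter were 1.27 to 1.51, so these values give no direction. Without the 8 libraries low in 8A and 14B, chosen after seeing the data, 2 arrays were called at R1, 2 between R1 and D7 and 1 in the difference between muscles. One soleus library of R1 then remained and was assumed to vary like the other groups. Without the 5 deepest arrays and 14B, also chosen after seeing the data, 8 were called at R1 in soleus. With the largest peak in place of the first, or edgeR's diffSpliceDGE, 0 first-peak shares were called at R1 in soleus. With the largest peak, the values of 1A at R1 and of 15A between the muscles were -0.0030 and -4.93. The causes were not tested.

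Leaving out 1 library gave 5 to 12 arrays at R1, 0 to 4 at R7 and 5 to 8 between R1 and D7 in soleus, and 1 to 1 at D1 and 0 to 2 at D3 in EDL. It gave 7 to 8 arrays between the muscles at D7, 9 to 11 at R1 and 2 to 6 in the difference between muscles. First peaks numbered 5 to 7 at R1 and 5 to 7 between the muscles, and first-peak shares 0 to 2 and 2 to 3. Between the muscles, 3C, 3D, 3E and 3F turned to -0.23, -0.19, -0.23 and -0.040 without soleus control U6 and had their highest values, 0.56, 0.62, 0.59 and 0.63, without soleus control U7. Array 10B ranged from -1.80 to 0.49 there, the latter without EDL control U7. At R1 in soleus, 10B turned to -0.39, -0.08 and -0.03 without control U6, control U8 or R1 U20 and was at most 0.94, without control U7. Peak 3 of 15A at D1 in EDL, never called, turned to -0.12 without D1 U26 and was at most 1.54.

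With the rat as a block, the pairing changed no count: 7 arrays between the muscles in controls, 7 at D7, 11 at R1, 5 in the difference and 2 first-peak shares. For peak 3 of 15A the blocked differences were -4.70 at D1, -7.40 at D3 and -7.56 at D7. A gap of 2500 nt gave 16 arrays and one of 10000 nt 25. Low counts limit 10A, with 11056 tags over 42 libraries and few of them at R1 in soleus. They also limit peak 3 of 15A, whose EDL control levels rest on few tags. Windows matched between arrays limit 1A, 5A, 6A, 14A and 14C, and to a lesser extent 15B (5 of 19 windows) and 15C (4 of 65).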
